A study of Mus musculus with 14 samples.

Results

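The Hoxb cluster of the mouse lies on chromosome 11 and was taken here as its 10 protein-coding genes, which in order along the chromosome are Hoxb13, Hoxb9, Hoxb8, Hoxb7, Hoxb6, Hoxb5, Hoxb4, Hoxb3, Hoxb2 and Hoxb1. Binding sites of 4 chromatin proteins were assigned to these genes. A site, called a region below, was a stretch with an overlapping peak in both replicates of a group, and it belonged to a Hoxb gene when that gene had the nearest end within 100 kb of its strongest summit. This gave 33 p300 regions of 53025 in gastruloids and 7 of 31014 in mouse embryonic stem cells (mESCs). RXRα gave 7 of 2352 in gastruloids and 8 of 24698 in mESCs, and in gastruloids Sp5 gave 12 of 10953 and Zeb2 gave 20 of 10172. Of the 10 genes, 9 had a p300 region in gastruloids (90.0%, against 68.3% of all 21887 genes) and 3 had one in mESCs (30.0%, against 49.3%), and Hoxb7 had no region in any group.

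All cells came from an E14 triple reporter line, which the culture description calls a line with Brachyury-GFP and SOX17-RFP reporters. Gastruloids, aggregates that elongate and form tail bud and trunk cell types, were harvested at 120 h after being started from 300 sorted cells in NDiff227 medium, with 3 µM of the Wnt agonist CHIR99021 given from 48 h. The mESCs were grown in serum with LIF. p300 was read in gastruloids and mESCs carrying an endogenous p300-V5-miniTurboID fusion, with a V5 antibody. RXRα was read in gastruloids and mESCs, and Sp5 and Zeb2 in gastruloids only, through endogenous HA-FKBP12F36V degron tags with an HA antibody. Each group had 2 libraries, and 2 inputs, 1 of gastruloids and 1 of mESCs, came from the p300 line. The labels do not say whether replicates were separate cultures or whether a tagged line was 1 clone, and every library is from pooled cells, so more cells with a site and more binding per cell cannot be told apart.

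Hox genes encode homeodomain transcription factors that give cells their position along the head-to-tail axis, and the genes of a cluster are switched on in the order in which they lie, from the 3′ end (Hoxb1) to the 5′ end (Hoxb13). Wnt signalling, Cdx factors and retinoic acid are known inducers of Hox genes in the embryo. Retinoic acid acts through receptors that pair with RXRα, and response elements for them are known in the mouse next to Hoxb4 and on the 3′ side of Hoxb1. p300 is a histone acetyltransferase used as a mark of active enhancers and promoters. Sp5 is a zinc finger factor induced by Wnt, and Zeb2 is a zinc finger factor known as a repressor of epithelial genes.

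A few sequences from RefSeq are shown first, because p300 regions of gastruloids cover or adjoin them. The promoter windows are the 250 bases before an annotated start of Hoxb8, chr11:96281655-96281904, and of Hoxb1, chr11:96365508-96365757, both on the plus strand of GRCm38.p6. Capitals mark the matches found for 11 motifs, searched on both strands.
Hoxb8 promoter: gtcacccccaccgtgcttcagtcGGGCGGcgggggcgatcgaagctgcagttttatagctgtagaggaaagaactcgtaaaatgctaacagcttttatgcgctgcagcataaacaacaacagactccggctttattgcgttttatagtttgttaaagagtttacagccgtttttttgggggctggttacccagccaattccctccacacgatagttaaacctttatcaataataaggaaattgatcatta
Hoxb1 promoter: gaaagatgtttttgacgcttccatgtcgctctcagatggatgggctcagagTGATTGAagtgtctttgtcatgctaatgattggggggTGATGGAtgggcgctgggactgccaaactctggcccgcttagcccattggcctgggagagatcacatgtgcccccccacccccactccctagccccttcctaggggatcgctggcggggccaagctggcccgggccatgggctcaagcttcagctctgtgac
In the Hoxb8 window the capitals are a GC box, GGGCGG, the kind of motif bound by Sp and Klf factors, which 32.7% of 32851 promoter windows of the same length also held. In the Hoxb1 window they are the Hox-Pbx motifs TGATTGA, held by 2.34% of windows, and TGATGGA, held by 2.99%. An autoregulatory element with Hox-Pbx sites is known upstream of Hoxb1 in the mouse hindbrain. None of the matches overlapped another. The Hoxb8 window lay wholly inside a p300 region of gastruloids with 171 and 146 fragments, and the Hoxb1 window wholly inside one with 288 and 358 fragments. Neither region overlapped a peak in mESCs. The other motifs were CTTTGAT (Tcf/Lef), its variant CTTTGTT, the Zeb motif CACCTG, the Cdx motif TTTATGG, the half-site AGGTCA, and the retinoic acid receptor repeats DR1, DR2 and DR5, which are pairs of half-sites set 1, 2 or 5 bases apart, each half-site being AGGTCA, the variant AGTTCA, the variant GGGTCA or the variant GGTTCA. RefSeq had such a window for 3 of the 10 genes, and in that of Hoxb4 the half-site AGGTCA was matched on the reverse strand, as in 14.0% of windows.

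The cluster also holds 2 microRNA genes, Mir196a-1 between Hoxb13 and Hoxb9 and Mir10a inside the span of Hoxb3 beside Hoxb4, whose products repress Hox messages in vertebrates. Capitals mark the seed, bases 2 to 8.
miR-10a-5p: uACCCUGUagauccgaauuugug
miR-196a-5p: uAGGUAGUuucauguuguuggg
The seeds differ. One of the strongest p300 summits of gastruloids, at 96316527, lay 638 bp from Mir10a, and a Zeb2 summit lay 715 bp from it. The nearest p300 summit of mESCs was 45187 bp away. For Mir196a-1 the nearest p300 summit lay 1524 bp away in gastruloids and 6713 bp away in mESCs.

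The peaks assigned to Hoxb genes are described by fragments, the number of sequenced fragments stacked on the summit, solved for each peak from the authors' fold and p-value. These came out whole within 0.01 for every peak (100% in each of the 12 lists). The lists held 63117 and 75346 peaks for p300 in gastruloids and 44506 and 35371 in mESCs. RXRα had 29867 and 3111 in gastruloids and 49661 and 28112 in mESCs, so its second gastruloid list was short. Sp5 had 19714 and 11932 peaks, and Zeb2 had 44310 and 12222. The inputs had no peak within the locus. The p300 libraries went with their labels at most marker genes. Each of 8 gastruloid marker genes had more gastruloid-only than mESC-only p300 regions, from Msgn1 (2 against 1) to Cyp26a1 (8 against 0). Of all 21887 genes 43.9% had more, a share that includes genes with no p300 region. Of 8 mESC marker genes 5 had fewer, among them Tfcp2l1 (1 against 4). The share of all genes with fewer was not computed. The 2 marker genes of mESCs with more were Sox2 (6 against 5) and Klf4 (3 against 2). Together the 8 mESC markers carried 19 gastruloid-only and 27 mESC-only regions, and the 8 gastruloid markers 31 and 1. All genes carried 27202 and 11037.

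**Figure D1:**
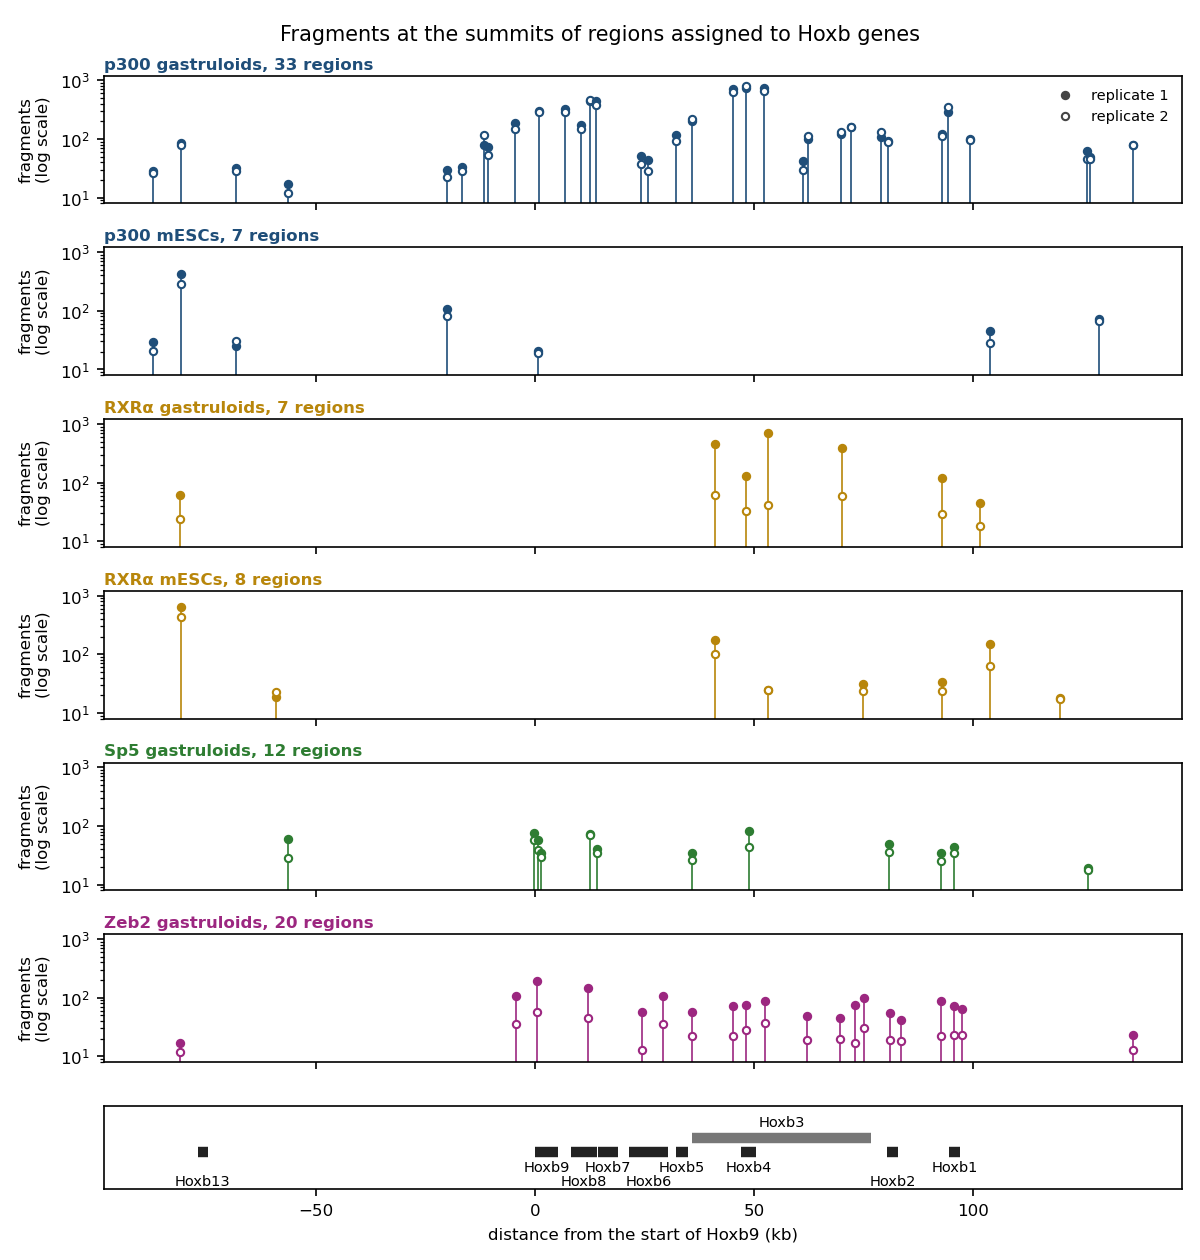
Fragments at the strongest summit of each Hoxb region (log scale) against the distance from the start of Hoxb9 in kb, 1 panel per group with the genes at the bottom. Filled points are replicate 1 and open points replicate 2; p300 in gastruloids fills the stretch between Hoxb9 and Hoxb1 and reaches 799 fragments at Hoxb4, while p300 in mESCs has 1 region there.

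p300 occupied the cluster in gastruloids far more widely than in mESCs. Of the 33 p300 regions of gastruloids, 28 (84.8%) overlapped no peak of either mESC library, where 64.0% of all 42519 regions assigned to a gene did so. The other 5 were present in both mESC libraries, 15.2% against 26.2% of all regions. Of the 7 p300 regions of mESCs, 1 was found in no gastruloid library (14.3%, against 43.8% of all 25180). That region, at 96399898 and 31644 bp from Hoxb1, held 73 and 67 fragments. The first mESC library alone gave 12 regions, 6 of them mESC-only, and the share of all regions was not computed for that library alone. The difference between the cell types was plain in the 96925 bp from the start of Hoxb9 to the end of Hoxb1. There p300 peaks covered 12.4% and 10.2% of the sequence in the gastruloid libraries, against 1.91% and 0.6% in the mESC libraries, and 20 of the 33 gastruloid summits lay there, against 1 of the 7 mESC summits. No test over libraries was made, because 2 libraries against 2 cannot bring an exact two-sided permutation test under 0.05. The weakest mESC p300 peaks at the sites of the cluster held 15 fragments, so fainter sites may have been missed in mESCs.

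Read from the 5′ end, Hoxb13, a gene of the tail tip and prostate, had 4 p300 regions in gastruloids and 3 in mESCs. The strongest of its gastruloid regions, with the summit at 96190378 between Ttll6 and Hoxb13, held 87 and 80 fragments in gastruloids and 419 and 289 in mESCs. As multiples of each library's lowest local background this was 44.5 and 61.7 in gastruloids and 155 and 125 in mESCs. It was higher in both mESC libraries. The other shared regions of Hoxb13 were weak in both cell types, with 29 and 26 fragments in gastruloids and 29 and 21 in mESCs at 96184100, and 32 and 29 in gastruloids and 25 and 30 in mESCs at 96203078. Only 1 of the 4 Hoxb13 regions, at 96214889, was absent from mESCs, and it was the weakest p300 region of the whole set, with 17 and 12 fragments.

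Hoxb9, which patterns the thoracic skeleton with its paralogs, had 6 p300 regions in gastruloids and 2 in mESCs. The region inside the gene, at 96272088, had 301 and 290 fragments in gastruloids and 21 and 19 in mESCs, or 154 and 224 times the lowest background in gastruloids and 7.75 and 8.19 times in mESCs. A second shared region, 20230 bp outside the gene at 96251100, went the other way, with 30 and 23 fragments in gastruloids and 109 and 81 in mESCs. The other 4 were gastruloid-only and lay between 4541 and 16790 bp from the gene, with fragments from 34 and 29 to 190 and 148. So the 5 shared p300 regions of the cluster all lay at Hoxb13 and Hoxb9. By fragments and over the lowest background, 96190378 and 96251100 were higher in both mESC libraries and 96272088 in both gastruloid libraries. At 96184100 and 96203078 the fragments of the cell types overlapped. Over the lowest background 96184100 was 14.8 and 20 in gastruloids against 10.7 and 9.05 in mESCs. At 96203078 this was 16.4 and 22.4 against 9.23 and 12.9. How often all shared p300 regions separate in this way was not computed.

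From Hoxb8 to Hoxb1 no p300 region of gastruloids overlapped an mESC p300 peak. Hoxb8, which acts in the posterior spinal cord and in blood cells, had 4 regions, at 96278074 (321 and 292 fragments), 96281779 (171 and 146), 96283709 (449 and 457) and 96285243 (452 and 385). The last of these had its summit 82 bp from the end of Hoxb8 that faces Hoxb7, a gap of 279 bp. It is therefore counted with Hoxb8, and Hoxb7 was left with no region in any group. Hoxb6 had 2 weak regions, with 52 and 38 fragments at 96295548 and 44 and 29 at 96296966. Hoxb5 had 1, with 119 and 92 fragments, 135 bp from the gene.

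The strongest p300 sites of the cluster lay around Hoxb4, a gene of the posterior hindbrain and of blood stem cells. Fragments were 724 and 637 at 96316527, 744 and 799 at 96319356, and 753 and 668 at 96323591, with exact Poisson 95% intervals of 672 to 779 and 588 to 688, 691 to 799 and 745 to 856, and 700 to 809 and 618 to 721. These intervals, like the others, cover counting error only. The 3 sites lay within 2 kb of an end of Hoxb4, 1 inside the gene and 1 on either side, and all 3 lie inside the long span of Hoxb3. No mESC library had a p300 peak at any of them. By fragments they ranked 17, 13 and 11 of 63117 peaks in the first gastruloid library and 13, 6 and 11 of 75346 in the second. The other 2 Hoxb4 regions were weaker, with 42 and 30 fragments at 96332534 and 102 and 111 at 96333617.

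Hoxb3, a hindbrain gene whose annotated span of 40830 bp encloses Hoxb4, had 3 regions of its own, with 202 and 224 fragments 30 bp from the end that faces Hoxb5, and 121 and 133 and 159 and 163 fragments deeper in the gene. Hoxb2, needed for the facial nerve, had 2, with 110 and 133 and 93 and 90 fragments. Hoxb1, the first gene of the cluster to be expressed and a gene of the hindbrain, had 6. Its strongest was the promoter region at 96365567 with 288 and 358 fragments, followed by 121 and 113 at 96364042 and 100 and 96 at 96370546. The other 3 lay 28953 to 39481 bp from Hoxb1 towards Skap1 and held 45 to 79 fragments.

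The authors' fold, the signal at the summit over the local background around it, gave these sites a different place from the fragment count. At the 3 strong Hoxb4 sites the fold was 8.97 and 10.2, 7.33 and 10.4, and 10.1 and 11.5, and their best position by fold in either list was the top 12.1%. The local background behind these folds was 79.8 and 61.6, 101 and 76, and 73.7 and 57.4 fragments, against a lowest local background of 1.96 and 1.3 in the same libraries. Over all 33 regions the local background had a median of 21 and 17.7 fragments, against 3.58 and 2.52 over all assigned regions, and the fragments had a median of 102 and 111 against 27 and 23. By fragments 8 and 9 of the 33 were in the top 1% of their list. By fold 0 and 0 were. By −log10 q 8 and 8 were. The median position was the top 4.53% and 2.43% by fragments and the top 50.7% and 41.3% by fold. At the Hoxb8 promoter, the fold was 2.86 and 3.06, near the end of both lists, while by fragments it ranked 976 and 1007. In mESCs the 7 p300 regions had a median local background of 5.63 and 5.5 fragments, against 5.11 and 4.11 over all assigned regions. MACS2 takes the local background from windows around the summit, and whether these were read from an input is not given in the sources used here, so how much signal of neighbouring sites it held was not tested.

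**Figure D2:**
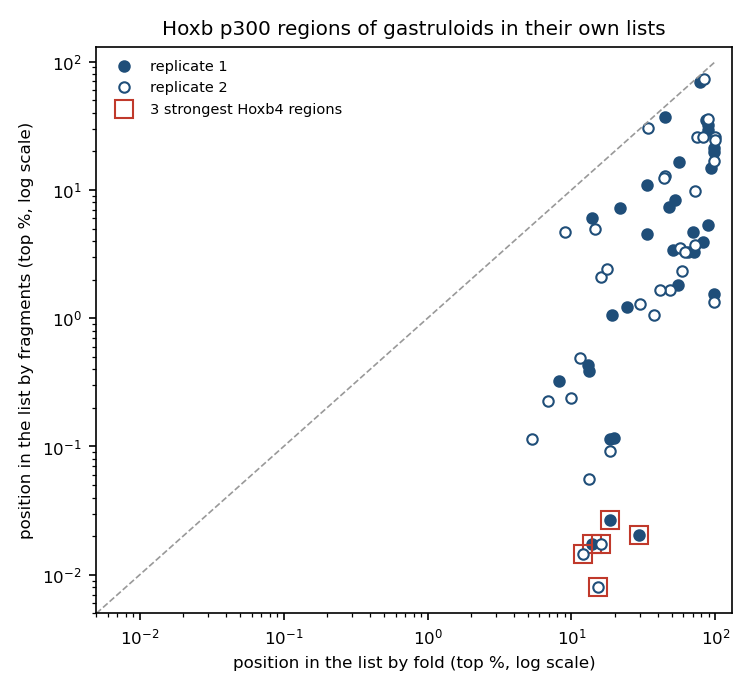
Position of the 33 Hoxb p300 regions of gastruloids in their own peak list, by the authors' fold (x axis) and by fragments at the summit (y axis), both as top percent on log scales; filled points are replicate 1, open points replicate 2, and red squares the 3 strongest Hoxb4 regions. All points lie below the dashed line of equal position, with a median of 4.53% and 2.43% by fragments and 50.7% and 41.3% by fold.

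In gastruloids RXRα had 7 of its 2352 regions at Hoxb genes, against 33 of 53025 for p300. The lower RXRα count came from a far shorter list, and as a share of its list it was the higher. Of the 7, 3 held no p300 region. In mESCs RXRα had 8 of 24698 regions, against 7 of 31014 for p300. Its 7 gastruloid regions lay at 4 of the 10 genes, Hoxb13, Hoxb3, Hoxb4 and Hoxb1 (40.0%, against 8.73% of all genes), and its 8 mESC regions lay at the same 4 genes (40.0%, against 49.4%), with 2, 2, 1 and 3 regions. Its strongest gastruloid site in the first library, at 96324351, 2713 bp from Hoxb4 inside the Hoxb3 span, held 689 and 41 fragments in gastruloids and 25 and 25 in mESCs. In the second gastruloid library the next 2 sites described were higher. The values at 96324351 were 624 and 36.9 times the lowest background in gastruloids and 12 and 11.4 times in mESCs. It had no p300 region, and the nearest p300 summit was 760 bp away. A site at 96312279 in Hoxb3 held 453 and 62 fragments in gastruloids and 177 and 102 in mESCs, again with no p300 region in either cell type, although 1 mESC library had a p300 peak of 19 fragments. Over the lowest background (410 and 55.7 in gastruloids, 84.9 and 46.4 in mESCs) the groups overlapped. Another, at 96341217 in Hoxb3, held 391 and 58 fragments in gastruloids and no peak in mESCs, and its summit was 12 bp from that of a p300 region.

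The other RXRα regions of gastruloids were weaker. Near Hoxb1 the site at 96364096 held 119 and 29 fragments in gastruloids and 33 and 24 in mESCs, and that at 96372801, 4547 bp from the gene, held 44 and 18 fragments in gastruloids and had no mESC peak. At 96319365 inside Hoxb4 there were 131 and 33 fragments in gastruloids, with 19 in 1 mESC library. Of the 7 regions, 2 were gastruloid-only (28.6%, against 17.8% of 2118 assigned RXRα regions) and 4 were in both mESC libraries (57.1%, against 69.6%). p300 was present at 4 of the 7 (57.1%), against 86.0% of all RXRα regions of gastruloids. The count of 7 rested on the short second list, in which fragments were 18 to 62. With the first library alone 25 regions were assigned to Hoxb genes, and 16 of these were gastruloid-only. The gastruloid-only share of all regions was not computed for that library alone.

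In mESCs RXRα was strongest near Hoxb13, where the site at 96190387 held 62 and 24 fragments in gastruloids and 651 and 429 in mESCs. In the mESC lists it was in the top 0.155% and 0.249% by fold. Its summit was 11 bp from the mESC p300 summit described above, so the strongest mESC site of both proteins in the cluster was the same. On the 3′ side of Hoxb1, 6795 bp from the gene, a second mESC site held no RXRα peak in gastruloids and 150 and 62 fragments in mESCs. p300 there, with its summit at 96374993, gave a peak of 46 fragments in 1 of the gastruloid libraries and 45 and 28 fragments in mESCs. The remaining mESC regions held 17 to 33 fragments apart from the Hoxb3 site. Of the 8 mESC regions, 4 were found in no gastruloid library (50.0%, against 63.5% of 22309), 4 were found in both (50.0%, against 6.60%), and p300 was at 2 (25.0%, against 42.4%). With the first mESC library alone the count was 15.

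**Figure D3:**
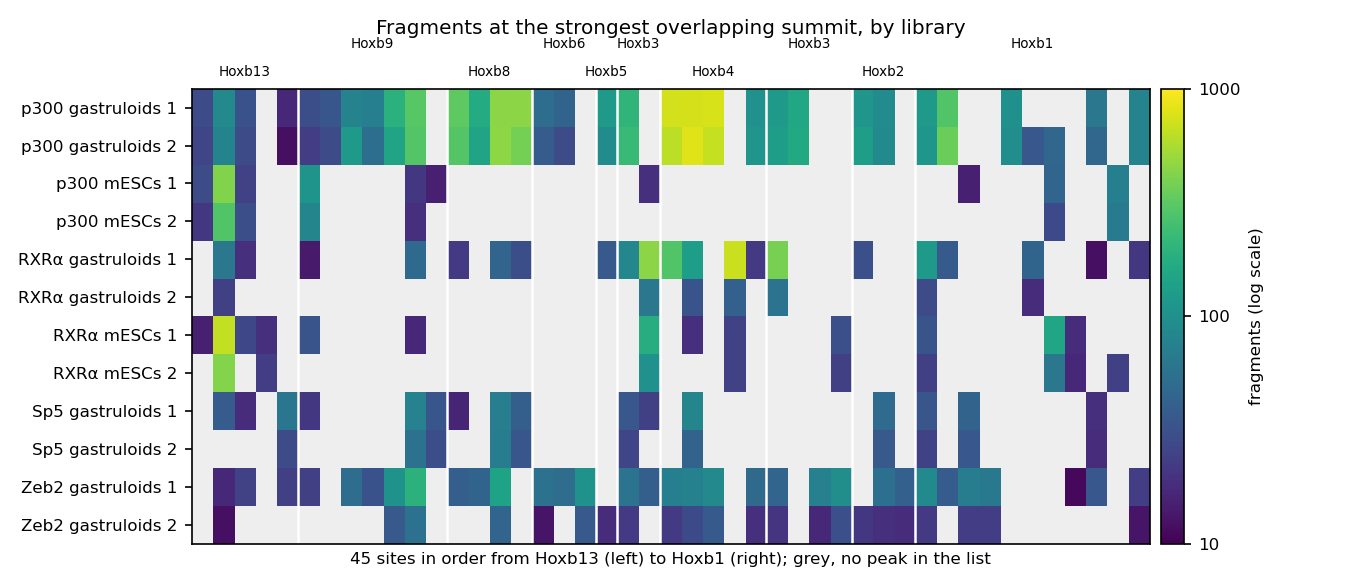
Fragments at the strongest overlapping summit in each of the 12 immunoprecipitation libraries (rows) at the 45 separate sites of the cluster (columns, Hoxb13 on the left, Hoxb1 on the right, gene names above); colour is a log scale from 10 to 1000 and grey means no peak in the list. The p300 rows of gastruloids are mostly filled from Hoxb8 to Hoxb2 where the mESC rows are almost empty, and the site near Hoxb13 is bright in the mESC rows of p300 and RXRα.

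Sp5 had 12 regions in gastruloids at 7 of the 10 genes (70.0%, against 39.9% of all genes), none of them among the top 1% of either list by fragments. The 2 highest by the lower of their libraries were 72 and 69 fragments at 96283734 in Hoxb8 and 77 and 57 at 96271095, 235 bp from Hoxb9. A site in Hoxb4 at 96320039 held 81 and 43 fragments, one in Hoxb2 at 96351953 held 50 and 36, and one 18373 bp from Hoxb13 held 61 and 29. Hoxb9 and Hoxb1 had 3 regions each, Hoxb8 had 2, and Hoxb13, Hoxb4, Hoxb3 and Hoxb2 had 1 each. p300 was present at 10 of the 12 (83.3%), close to the 84.9% of all Sp5 regions. Summits lay 13 to 993 bp from the p300 summit, with a median of 82 bp, and 5 of the 12 summits (41.7%) were within 1 kb of a gene end, against 64.6% of all Sp5 regions.

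Zeb2 had 20 regions, at 8 of the 10 genes (against 33.0% of all genes), with 16 of the summits between Hoxb9 and Hoxb1. The strongest, in Hoxb9 at 96271764, held 192 and 56 fragments. It was followed by 144 and 45 at 96283440 in Hoxb8, 107 and 36 at 96300425 in Hoxb6, 106 and 36 at 96266879 near Hoxb9, and 88 and 37 at 96323653 near Hoxb4. In the first Zeb2 library 4 of the 20 were in the top 1% by fragments, and in the second 1 was. p300 was present at 14 of the 20 (70.0%), against 78.1% of all Zeb2 regions, with summits 14 to 324 bp apart, and Sp5 at 7 (35.0%, against 46.7%). The Hoxb6 site had no p300 region, with the nearest p300 summit 2952 bp away. Zeb2 regions without p300 were also found in Hoxb3 (74 and 17, and 97 and 31 fragments), beside Hoxb2 (41 and 18) and at Hoxb1 (71 and 23, and 64 and 23). The second Zeb2 list was the shorter, and with the first alone the count was 39.

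Read from the p300 side, Zeb2 was the most frequent partner. Of the 33 p300 regions of gastruloids, 15 overlapped a Zeb2 region (45.5%, against 17.1% of all 42519), 10 an Sp5 region (30.3%, against 20.9%) and 4 an RXRα region (12.1%, against 4.28%). Sp5 and Zeb2 were both present at 6 (18.2%, against 9.69%), and none of the 3 at 14 (42.4%, against 70.4%). Hoxb p300 peaks were also larger than most, with the medians given above, and the part of peak size in these shares was not tested. With the first RXRα library alone 18 of the 33 carried RXRα (54.5%, against 33.6% of all p300 regions), and with the first Zeb2 library alone 25 carried Zeb2 (75.8%, against 45.2%). With the first libraries of all 3 factors, 5 of the 33 carried none. The share of all p300 regions with none was not computed for the first libraries, and the 70.4% above does not apply to them.

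Sites that held 2 or more of the factors lay at Hoxb13, Hoxb9, Hoxb8, Hoxb4, Hoxb3, Hoxb2 and Hoxb1. All 3 were present with p300 at 2 sites (6.06%, against 1.45% of all p300 regions). One was inside Hoxb4 at 96319356, with 131 and 33 fragments of RXRα, 81 and 43 of Sp5 and 75 and 28 of Zeb2. The other was between Hoxb2 and Hoxb1 at 96364042, with 119 and 29 of RXRα, 34 and 25 of Sp5 and 89 and 22 of Zeb2. Sp5 and Zeb2 met p300 without RXRα in Hoxb9 (77 and 57 of Sp5, 192 and 56 of Zeb2), in Hoxb8 at 96283709 (72 and 69 of Sp5, 144 and 45 of Zeb2), at the end of Hoxb3 at 96307071 (35 and 26 of Sp5, 58 and 22 of Zeb2) and in Hoxb2 at 96351928 (50 and 36 of Sp5, 54 and 19 of Zeb2). RXRα and Zeb2 met p300 without Sp5 near Hoxb13 at 96190378 (62 and 24 of RXRα, 17 and 12 of Zeb2) and in Hoxb3 at 96341205 (391 and 58 of RXRα, 45 and 20 of Zeb2). Sp5 and Zeb2 met without p300 inside Hoxb1 at 96366819 (43 and 35 of Sp5, 71 and 23 of Zeb2). The strong p300 sites on either side of Hoxb4 carried Zeb2 but no region of Sp5 or RXRα, although the first RXRα library had a peak of 289 fragments at 96316527.

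**Figure D4:**
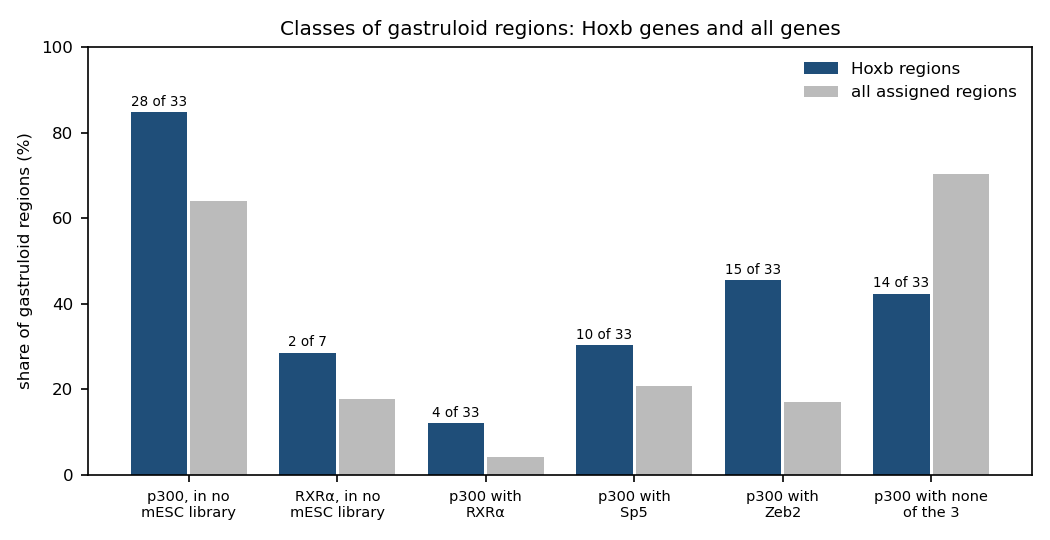
Share of gastruloid regions (%) that fall in each class, for regions assigned to Hoxb genes (blue, counts above the bars) and for all assigned regions of the same group (grey); each bar is 1 share with no error bar. The Hoxb bar is higher for gastruloid-only p300 regions (84.8% against 64.0%) and for p300 with Zeb2 (45.5% against 17.1%), and lower for p300 with none of the 3 factors (42.4% against 70.4%).

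Laid over each other, the 87 regions formed 45 separate sites, of which 20 held 1 group only and 4 held 4 or more groups. p300 of gastruloids alone accounted for 11 sites, p300 with Zeb2 for 6, and Zeb2 alone for 4. A group counts here only with a peak in both replicates. Most of the 11 p300 sites had a peak of RXRα, Sp5 or Zeb2 in 1 library of that factor. The share of regions with the summit within 1 kb of a gene end differed between groups. For p300 it was near the share over all regions in gastruloids, 6 of 33 (18.2%, against 22.5%). In mESCs it was 1 of 7 (14.3%, against 8.86%), a single region that cannot set the shares apart. For RXRα it was lower, 0 of 7 in gastruloids (against 43.2%) and 0 of 8 in mESCs (against 19.9%). It was also lower for Sp5, 5 of 12 (41.7%, against 64.6%), and Zeb2, 5 of 20 (25.0%, against 49.4%). The annotation gives gene spans without exons, so intron and exon positions were not told apart.

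The Hoxb genes had the most p300 regions of the 4 Hox clusters in gastruloids. The Hoxa genes had 24 in gastruloids and 5 in mESCs, with 19 gastruloid-only. The Hoxc genes had 22 and 3, with 21 gastruloid-only, and the Hoxd genes 13 and 0, with 12. The highest p300 site of each was again at or beside a group 4 or 5 gene, Hoxa4 with 864 and 686 fragments in gastruloids, Hoxc5 with 363 and 361, and Hoxd4 with 216 and 208. RXRα was likewise highest in gastruloids near a group 3 or 4 gene in each, with 498 and 53 fragments at Hoxa3, 760 and 71 at Hoxc4 and 439 and 50 at Hoxd3. Zeb2 had 20 regions at Hoxb genes, against 10 at Hoxa genes, 6 at Hoxc genes and 7 at Hoxd genes.

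Of 20 inducers and cofactors of Hox genes, 17 had more gastruloid-only than mESC-only p300 regions, 0 had fewer and 3 had equal numbers. Of all 21887 genes 43.9% had more, but that share includes genes with no p300 region, while each of the 20 had one. The 20 genes carried 98 gastruloid-only and 19 mESC-only regions, where all genes carried 27202 and 11037. The Hox cofactors Meis1 and Meis2 had 15 gastruloid-only regions each, against 3 and 4 mESC-only, and Pbx3 had 11 against 2. Cyp26a1, the enzyme that breaks down retinoic acid, had 8 against 0, Rxra itself 6 against 0, and the posterior inducer Cdx2 3 against 0. Cdx1, the ligand gene Wnt3a and the receptor gene Rarg had equal numbers. Longer genes can collect more regions, and no adjustment was made for length.

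Genes within 300 kb of the cluster also carried p300 regions. Ttll6, the neighbour of Hoxb13, had 5 in gastruloids, of which 4 were gastruloid-only, and 2 in mESCs. Calcoco2 had 3 in gastruloids, of which 2 were gastruloid-only, and 2 in mESCs, and B4galnt2 had 7 in gastruloids, of which 4 were gastruloid-only, and 3 in mESCs. Skap1, the long neighbour of Hoxb1, had 16 in gastruloids, of which 10 were gastruloid-only, and 11 in mESCs. Igf2bp1 had 5 in gastruloids, none of them gastruloid-only, and 6 in mESCs. The genes whose split over the 6 groups was nearest to that of the Hoxb genes, among 2570 with at least 12 regions, were Neurog2, a neuronal factor, at a Euclidean distance of 0.0698 between the shares, then T2 (0.0942), the DNA helicase gene Brip1 (0.0943), the planar polarity gene Prickle1 (0.102) and Chn1 (0.104). In the Hoxb genes these shares were 37.9% for p300 in gastruloids, 8.05% in mESCs, 8.05% and 9.2% for RXRα in gastruloids and mESCs, 13.8% for Sp5 and 23% for Zeb2.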

How the data were processed

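The authors deposited 1 peak list per library, not pooled. Per the submitters' processing notes, fastp 0.20.1, BWA 2.2.1 and MACS2 2.2.7 were used with build GRCm38.p6 (mm10); their roles and settings, and whether MACS2 was given an input, are not given in the sources used here. The authors' values per peak are a fold enrichment (a ratio of summit signal to local background), a −log10 p and a −log10 q with a q threshold of 0.05, a score equal to 10 times −log10 q rounded down, and the summit position in bp, all in the deposited lists and used only inside a list.

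From these, peaks on the 21 main chromosomes were kept, peaks that overlapped an input peak were removed, and replicates were merged where peaks overlapped by at least 1 bp. Gene ends came from RefSeq spans without strand. Sequencing depth is unknown; summit fragments and local background were solved from fold, with a pseudocount of 1, and −log10 p (Python 3.11.15, scipy 1.17.1), and 5000 of 5000 simulated pileups were recovered. No test was planned or made: counts are descriptions beside the share over all assigned regions. Named regions were the 5 with the highest mean −log10 q in each group and those with 2 or more factors; other regions and libraries were added after their values were seen. The Hoxb genes, the lists and these rules were chosen with earlier results of these data known. The motif search planned at summits had no genome of the build, so promoter windows were searched instead. Alternatives were other lengths, thresholds, overlaps and assignments, and each replicate left out.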

Additional observations from a re-analysis of the deposited data

Results flagged for a closer look

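Peaks present in 1 replicate only were not used for regions. They were not counted over all p300 regions, only at the 33 Hoxb p300 regions of gastruloids. RXRα had a peak in its first library only at 14 of them, with 12 to 289 fragments and a median of 30.5. Zeb2 had a peak in its first library only at 11, with 24 to 52 fragments and a median of 38, and Sp5 at 5, with 16 to 38 fragments and a median of 19. The reverse, a peak in the second library only, occurred at 0 for RXRα, 2 for Zeb2 and 1 for Sp5. They are given because the regions above do not use them; the inputs had no peak in the locus. In the first libraries 54.5% of the Hoxb p300 regions carried RXRα, against 33.6% of all p300 regions, and 75.8% carried Zeb2, against 45.2%. In the second libraries 4 of the 33 carried RXRα, against 1914 of all 42519, and 16 of the 33 carried Zeb2, against 7244 of all 42519. The list lengths of the replicates differed in the same direction, and their part was not tested.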

How the results depend on the processing

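Of 164 alternative values, 139 were within 1.5 times the reported count and 25 were not. The 33 p300 regions of gastruloids, the 28 gastruloid-only ones and the 12 Sp5 regions stayed within it under every alternative run. For region counts, equal length applied only to the 2 lists of a group. The 33 against 7 p300 regions were therefore not recounted with gastruloid and mESC lists of equal length. The gastruloid-only count was, and gave 23. With lists of equal length, p300 gave 2 mESC-only and 2 shared regions, and RXRα gave 4 gastruloid-only, 1 mESC-only and 2 shared. For the overlaps with factors the p300 lists were cut as well. They were cut to 3111 peaks for RXRα and for none of the factors, 11932 for Sp5 and 12222 for Zeb2. Of the Hoxb p300 regions left in each case, 1 carried RXRα, 6 Sp5, 9 Zeb2 and 5 none of them. The number left was not recorded, so these counts are not out of 33. With a −log10 q of at least 5, RXRα in mESCs had 5 regions, 1 of them mESC-only, Zeb2 had 10, and p300 carried Sp5 at 6 and Zeb2 at 7. With a gene end within 20 kb, 0 p300 regions were mESC-only. Leaving out 1 replicate gave 7 to 12 p300 regions in mESCs, 1 to 6 of them mESC-only, 7 to 25 RXRα regions in gastruloids, 2 to 16 of them gastruloid-only, 10 to 15 RXRα regions in mESCs, 23 to 39 Zeb2 regions, and 4 to 18 p300 regions with RXRα, 15 to 25 with Zeb2 and 5 to 19 with none. The classes by cell type were not recomputed over all regions with 1 replicate left out. No paired analysis was possible because no result comes from a test and replicates share only a number. Depth was not given, peaks stand in for binding, and the nearest gene end does not show which gene a site acts on, least so for Hoxb3, Hoxb4, Hoxb7 and Hoxb8, whose ends lie close together or inside one another.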
